A study of Mus musculus with 8 samples.

Results

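Potassium and sodium channel genes of the nerve were read across injury and genotype in mouse sciatic nerve. The set holds 9 genes of the 18194 that the array's annotation names: the inward rectifiers Kcnj10 and Kcnj16, the tandem-pore channel Kcnk1, the Shaker-type channels Kcna1, Kcna2 and Kcna6, the sodium channel pore genes Scn7a and Scn8a, and the sodium channel auxiliary gene Scn3b. They were taken by gene name, with no threshold on any value, and 26 probe sets (groups of array probes for 1 transcript) carry their names. The genes were selected on the log2 expression of these same arrays, in that earlier results of the injury and genotype comparisons were known when they were picked, though no threshold is recorded. Every value below therefore describes these genes, and no p-value is independent support for the choice.

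The study concerns c-Jun, a transcription factor, in the Schwann cells that remain after nerve injury. Adult mice had 1 sciatic nerve transected near the notch, and 7 days later a 10 mm piece of the distal stump and the uninjured nerve of the other side were taken. There were 4 groups of 2 arrays: cut nerve of mice labelled c-Jun KO, cut nerve of WT control mice, uncut nerve of c-Jun KO mice and uncut nerve of WT control mice. Each array held RNA pooled from 4 or 6 mice, and the 2 pools of a group are described as independent. All 4 groups are adult. The labels give neither the allele nor the promoter that drove the deletion, and no sex or strain. Uncut samples are the other nerve of operated animals, not nerves of unoperated mice.

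Jun itself, the gene the mutation targets, stood at 10.39 and 10.80 (log2) in mutant cut nerve, against 11.88 and 11.96 in control cut nerve. In uncut nerve it stood at 9.59 and 9.62 in the mutant and 9.58 and 9.70 in the control. Jun was thus reduced in mutant cut nerve (log2 change -1.33, SE 0.14, limma adjusted p = 0.0087), a call lost in 2 of 8 fits that each leave out 1 array, those without either control cut array (highest adjusted p = 0.063). Whether its probes lie in the deleted part is not known here, and this checks the labels only in part. Schwann cells are named as the tissue in the labels, and the lineage markers Sox10, S100b, Erbb3, Foxd3 and Dhh were all measured, but macrophage, muscle, fibroblast and vessel markers were measured too, so the values are of a whole nerve segment. In such bulk RNA, fewer cells of a type and less RNA per cell cannot be told apart. Replicate arrays correlated across the 12094 genes tested with r between 0.984 and 0.989. Arrays of the same injury state but the other genotype had r between 0.977 and 0.987, which overlaps that range. Cut against uncut arrays had r between 0.854 and 0.894.

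In a myelinated nerve, sodium channels gather at the node of Ranvier and carry the action potential, while Shaker-type potassium channels sit beside it under the myelin and damp repeated firing. Glial cells take up the potassium that active axons release, through inward rectifier and tandem-pore channels, and pass it on through gap junctions. After a nerve is cut the axons of the distal stump degenerate, and Schwann cells give up their myelin. The cell bodies of the axons lie outside the segment, so most of its RNA comes from Schwann cells and the other cells that live in the nerve.

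Promoter windows are shown for 4 genes that carry the findings below: Kcnj10, which was higher in mutant cut nerve, and Kcnk1, Scn7a and Scn8a, which fell together after the cut. They are RefSeq sequences of build GRCm38.p6, 250 bases before to 50 after the annotated start, and 7 of the 9 genes matched. Kcna1 and Scn3b had no entry. The windows were searched on both strands for the AP-1 letters TGANTCA, the motif of c-Jun and its partners, and for the EGR letters GCGNGGGCG, the motif of the family of the myelin regulator Egr2. Capitals mark EGR letters.
Kcnj10, chr1:172340960-172341259, plus strand: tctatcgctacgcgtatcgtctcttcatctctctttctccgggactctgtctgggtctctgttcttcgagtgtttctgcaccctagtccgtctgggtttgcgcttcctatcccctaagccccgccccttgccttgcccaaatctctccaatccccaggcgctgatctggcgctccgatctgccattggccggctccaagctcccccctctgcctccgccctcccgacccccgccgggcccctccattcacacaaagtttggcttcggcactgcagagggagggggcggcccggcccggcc
Kcnk1, chr8:125994852-125995151, plus strand: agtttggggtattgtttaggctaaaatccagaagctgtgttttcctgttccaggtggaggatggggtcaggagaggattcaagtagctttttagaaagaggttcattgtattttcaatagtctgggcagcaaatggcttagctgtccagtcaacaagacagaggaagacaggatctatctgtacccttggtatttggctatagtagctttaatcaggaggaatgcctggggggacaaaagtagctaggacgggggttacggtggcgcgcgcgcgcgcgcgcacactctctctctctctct
Scn7a, chr2:66784861-66785160, minus strand: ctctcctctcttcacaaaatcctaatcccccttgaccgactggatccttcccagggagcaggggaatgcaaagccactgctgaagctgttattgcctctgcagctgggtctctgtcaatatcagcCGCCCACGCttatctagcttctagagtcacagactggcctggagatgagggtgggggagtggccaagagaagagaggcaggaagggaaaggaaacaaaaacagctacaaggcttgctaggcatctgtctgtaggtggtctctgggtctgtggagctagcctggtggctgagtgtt
Scn8a, first of 2 windows, chr15:100870395-100870694, plus strand: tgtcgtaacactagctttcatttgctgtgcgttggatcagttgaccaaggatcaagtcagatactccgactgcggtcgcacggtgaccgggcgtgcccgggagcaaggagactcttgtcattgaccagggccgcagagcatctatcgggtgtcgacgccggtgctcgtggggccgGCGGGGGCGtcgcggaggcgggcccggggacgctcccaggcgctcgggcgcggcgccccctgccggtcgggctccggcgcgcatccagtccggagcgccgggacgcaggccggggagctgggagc

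The AP-1 letters were in none of the 11 windows of the 7 genes, 4 of which belong to Kcnj16 and 2 to Scn8a. They occur in 7.81% of the 32851 windows of this length that were searched, which do not cover every chromosome. The EGR letters occurred once in the Scn7a window and once in the first Scn8a window, and 5.55% of the windows searched hold them. A match is a string of letters and not a measured site, and a window without one says nothing about the factor.

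A value counts as log2 expression as the authors deposited it, so a change of 1 is a 2-fold difference. A gene was tested if 1 of its probe sets exceeded the array median in 2 or more arrays, and the passing probe set of highest mean stands for it. Of the 9 genes 8 were tested. Kcna1, Kcna2, Kcna6, Scn7a and Scn3b lay above the median on all 8 arrays. Kcnk1 and Scn8a did so only on the 4 uncut arrays and Kcnj10 only on the 2 mutant cut arrays, so these 3 entered through the groups in which they are high. Array medians lay between 6.59 and 6.65. Differences against lower values are compressed by the processing, so their size is uncertain. Levels are compared between arrays for 1 gene, never between genes.

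**Figure D1:**
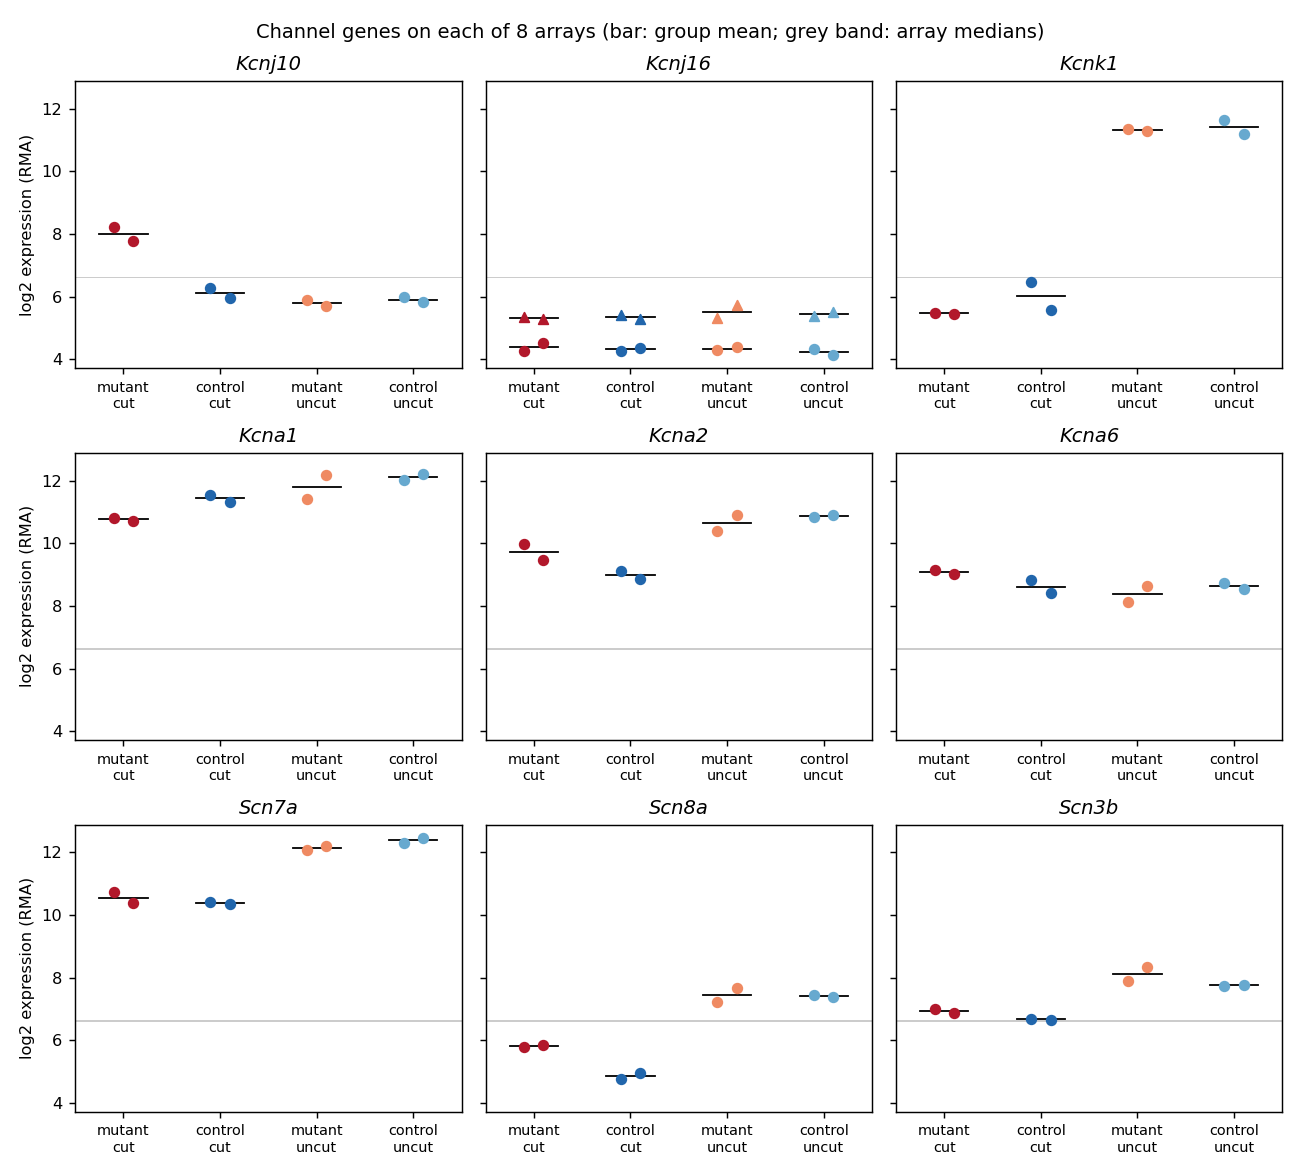
Deposited log2 expression of the 9 channel genes on each of 8 arrays, by group, with a bar at each group mean and a grey line at the array medians (6.59 to 6.65). Kcnj16, with both its probe sets shown as circles and triangles, lies below the medians everywhere, Kcnj10 stands out in mutant cut nerve, and Kcnk1 lies at 5.45 to 6.47 in cut nerve and 11.20 to 11.64 in uncut nerve.

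Most of these channel genes fell after the cut in both genotypes. In mutant nerve 6 of 8 fell and 2 rose (limma, adjusted p under 0.05), where 36% of all genes tested were called, 17.8% lower and 18.1% higher. In control nerve 6 of 8 fell and none rose, where 40.3% of all genes were called, 17.5% lower and 22.8% higher. The same 6 genes fell in both: Kcnk1, Scn8a, Scn7a, Kcna2, Scn3b and Kcna1. Kcnk1, Scn8a and Kcnj10 entered the test through the groups in which they are high, so that their direction is tied to the filter. Of the 5 genes above the median on all arrays, 5 were called in mutant nerve (Kcna6 higher, the others lower) and 4 in control nerve (all lower). The injury comparisons of the 2 genotypes share no array in their means. Both use the same variance, fitted to all 8 arrays, so their p-values are not independent of each other.

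**Figure D2:**
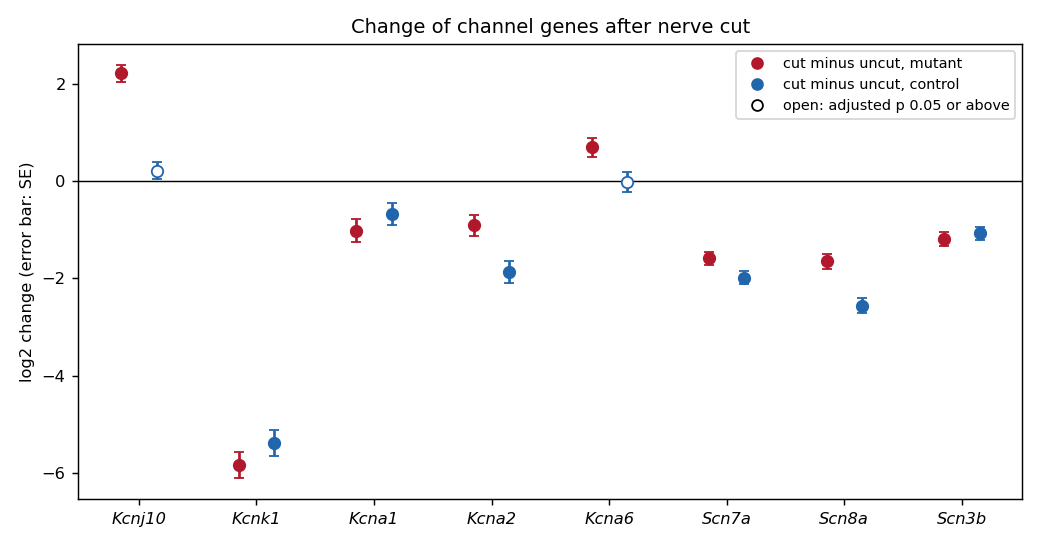
Log2 change after nerve cut (cut minus uncut) of the 8 tested channel genes in mutant and control nerve, with SE bars and open circles where the adjusted p was not under 0.05. Kcnk1 is at -5.84 in mutant and -5.39 in control nerve, and Kcnj10 is at 2.21 in mutant and 0.21 in control nerve.

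The inward rectifier Kcnj10 encodes the main potassium-uptake channel of glia, best known from astrocytes, satellite cells and oligodendrocytes. It measured 8.24 and 7.79 in mutant cut nerve, against 6.29 and 5.95 in control cut nerve. In uncut nerve it measured 5.89 and 5.72 in the mutant and 5.98 and 5.83 in the control. Mutant cut nerve thus held the highest values and overlapped no other group, while the other 3 groups lay between 5.72 and 6.29, below every array's median, and neighbours among them overlapped. In mutant nerve Kcnj10 rose after the cut by 2.21 (SE 0.18, limma adjusted p = 9.4e-05), a 4.62-fold difference, and in control nerve the change was 0.21 (SE 0.18, adjusted p = 0.37). It had 1 probe set.

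Kcnj16 encodes a subunit that joins with the Kcnj10 channel to form a pH-sensitive rectifier in kidney and glia. Neither of its probe sets reached an array median on any array, so it was not tested. One lay at 5.37 and 5.29 in mutant cut nerve, 5.41 and 5.29 in control cut nerve, 5.31 and 5.73 in mutant uncut nerve and 5.38 and 5.50 in control uncut nerve. The other lay between 4.14 and 4.52 on all arrays. On the first, mutant cut nerve lay below control uncut nerve by a narrow margin and the other pairs of groups overlapped, and on the second all groups overlapped. In a fit of all 18194 genes without the signal filter its injury change was -0.19 (95% interval -0.51 to 0.14) in mutant and -0.09 (-0.41 to 0.24) in control nerve.

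Kcnk1 encodes a tandem-pore channel that carries background potassium current. It measured 5.49 and 5.45 in mutant cut nerve, against 11.34 and 11.28 in mutant uncut nerve. Control nerve had 6.47 and 5.58 after the cut, against 11.64 and 11.20 in uncut nerve. Cut and uncut arrays were far apart, and every cut array lay below its median, so the size of the fall is uncertain. Kcnk1 fell by 5.84 (log2 change -5.84, SE 0.27, limma adjusted p = 9.7e-06) in mutant nerve and by 5.39 (-5.39, SE 0.27, adjusted p = 9.8e-06) in control nerve. Its second probe set gave -4.43 and -4.49 in mutant and control nerve.

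The Shaker-type genes did not move as 1 group. Kcna1 and Kcna2 encode subunits that join in the channels beside the node, and Kcna6 a further subunit of that family found in several neurons and glia. Kcna1 measured 10.82 and 10.72 in mutant cut nerve, against 11.40 and 12.18 in mutant uncut nerve. In control nerve it measured 11.55 and 11.33 after the cut, against 12.03 and 12.21 in uncut nerve. Cut arrays lay below uncut arrays within each genotype, and the 2 mutant uncut arrays differed by more than the control groups. Kcna1 fell by 1.02 in mutant (log2 change -1.02, SE 0.23, limma adjusted p = 0.011) and by 0.68 in control nerve (-0.68, SE 0.23, adjusted p = 0.048). The mutant call was lost without mutant cut replicate 2 (adjusted p = 0.058). The control call was kept in 2 of 8 fits that each leave out 1 array, and the adjusted p reached 0.19 without control cut replicate 2 and without control uncut replicate 2. It was kept in 5 of 14 other alternatives and lost, among others, with no filter (adjusted p = 0.054), with probe sets as units (0.052), with median centring (0.052) and with the unmoderated statistic (0.16). On 2 further probe sets the changes were -0.69 and -0.81 in mutant and -0.77 and -0.73 in control nerve. Of these, the mutant change of -0.69 did not pass (limma adjusted p = 0.052 among 20953 probe sets).

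Kcna2 measured 9.99 and 9.47 in mutant cut nerve, against 10.39 and 10.90 in mutant uncut nerve. Control nerve had 9.13 and 8.87 after the cut, against 10.84 and 10.90 in uncut nerve. Cut arrays lay below uncut arrays in each genotype, and the control cut arrays were the lowest of all. It fell by 0.91 in mutant (-0.91, SE 0.22, limma adjusted p = 0.014) and by 1.87 in control nerve (-1.87, SE 0.22, adjusted p = 0.00048). The mutant call was lost without mutant cut replicate 2 (adjusted p = 0.080) or mutant uncut replicate 2 (adjusted p = 0.081). On its second probe set the changes were -0.69 and -1.90 in mutant and control nerve, and on a further one -0.47 and -0.84. Of these, the mutant changes did not pass (adjusted p = 0.054 and 0.081 among 20953 probe sets).

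Kcna6 measured 9.14 and 9.01 in mutant cut nerve, against 8.12 and 8.65 in mutant uncut nerve. In control nerve it measured 8.83 and 8.41 after the cut, against 8.74 and 8.53 in uncut nerve. The control arrays overlapped across injury, while the mutant cut arrays were the highest of the 8. It rose in mutant nerve by 0.69 (SE 0.20, limma adjusted p = 0.033), and the control change was -0.02 (95% interval -0.49 to 0.46). The mutant call was lost without either mutant cut array or mutant uncut replicate 1 (highest adjusted p = 0.16), and a second probe set gave 0.29, which did not pass (adjusted p = 0.29).

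**Figure D3:**
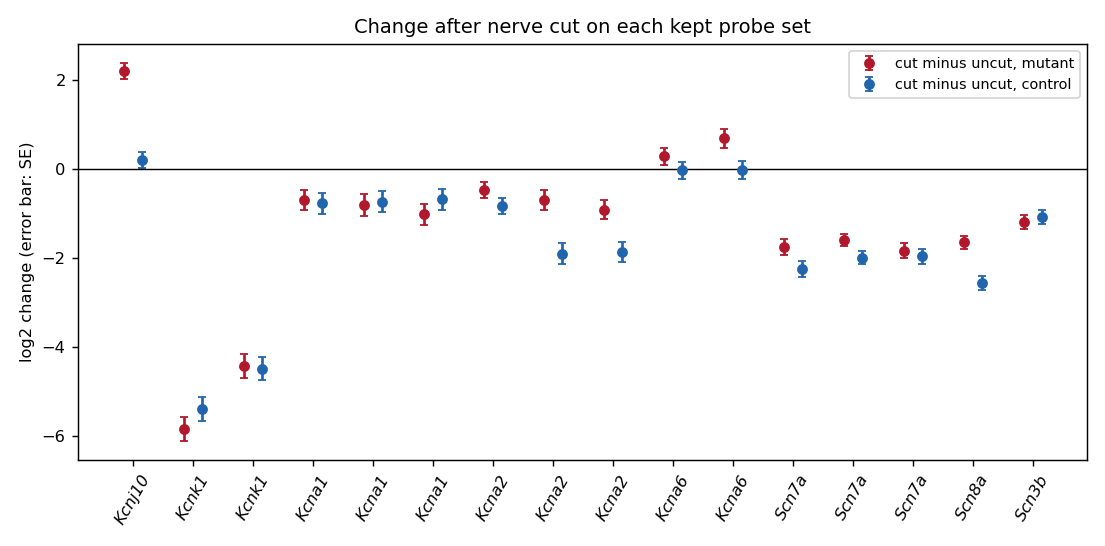
Log2 change after nerve cut in mutant and control nerve on each of the 16 kept probe sets of the channel genes, with SE bars. Probe sets of the same gene share their sign in each genotype, with Kcnk1 between -4.43 and -5.84 and Scn7a between -1.59 and -2.24.

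Among sodium channel genes, Scn7a encodes an atypical channel that senses extracellular sodium rather than voltage and is found in non-myelinating Schwann cells. It measured 10.73 and 10.39 in mutant cut nerve, against 12.09 and 12.22 in mutant uncut nerve. Control nerve had 10.43 and 10.36 after the cut, against 12.31 and 12.47 in uncut nerve. The injury states were well apart and the cut arrays of both genotypes overlapped. It fell by 1.59 in mutant (-1.59, SE 0.13, limma adjusted p = 0.00012) and by 1.99 in control nerve (-1.99, SE 0.13, adjusted p = 3.5e-05), and its other 2 probe sets gave -1.75 and -1.84 in the mutant and -2.24 and -1.96 in the control. In the same comparisons the markers fixed for non-myelinating Schwann cells went both ways: of 4 tested, 2 rose and 1 fell in each genotype, among them the neurotrophin receptor Ngfr at 3.39 and 3.93.

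Scn8a encodes the main sodium channel of mature nodes. It measured 5.79 and 5.84 in mutant cut nerve, against 7.24 and 7.68 in mutant uncut nerve. In control nerve it measured 4.78 and 4.95 after the cut, against 7.45 and 7.39 in uncut nerve. The uncut arrays of the genotypes overlapped, the mutant cut arrays lay below them and the control cut arrays lay lowest. It fell by 1.65 in mutant (-1.65, SE 0.15, limma adjusted p = 0.00017) and by 2.56 in control nerve (-2.56, SE 0.15, adjusted p = 2.0e-05). Its other 4 probe sets did not pass the signal filter.

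Scn3b encodes an auxiliary subunit that adjusts the gating and surface level of sodium channels. It measured 6.99 and 6.87 in mutant cut nerve, against 7.90 and 8.33 in mutant uncut nerve. Control nerve had 6.69 and 6.66 after the cut, against 7.75 and 7.76 in uncut nerve. All cut arrays lay below all uncut arrays. It fell by 1.19 in mutant (-1.19, SE 0.14, limma adjusted p = 0.00072) and by 1.08 in control nerve (-1.08, SE 0.14, adjusted p = 0.00094). The injury calls of Kcnk1, Scn7a, Scn8a and Scn3b held in all 8 fits that each leave out 1 array, in both genotypes.

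Markers of several cell types moved with the injury. All 8 tested of the 10 genes fixed for myelinating Schwann cells fell in each genotype, with Ncmap at -6.83 and -6.98 in mutant and control nerve. The mean level of these 8 was 8.20 to 8.54 in mutant cut, 8.21 to 8.22 in control cut, 12.12 to 12.28 in mutant uncut and 12.25 to 12.27 in control uncut nerve. Of 8 macrophage markers 7 rose in mutant and 8 in control nerve, with mean levels of 10.76 to 10.97 in mutant cut and 10.90 to 10.98 in control cut nerve, against 8.93 to 9.25 in mutant uncut and 8.87 to 9.08 in control uncut nerve. Of 8 skeletal muscle markers 8 rose in mutant and 6 in control nerve, with mean levels of 13.02 to 13.67 in mutant cut and 12.93 to 13.18 in control cut nerve, against 10.98 to 11.93 in mutant uncut and 11.01 to 11.89 in control uncut nerve. All 4 perineurial markers fell in each genotype (median -1.27 in mutant and -1.21 in control nerve). Of the 9 neuron markers 6 were tested, of which 3 fell and 1 rose in mutant and 3 fell and 2 rose in control nerve. The neurofilament gene Nefl changed by -3.22 in each, with cut values of 3.75 to 4.16, below the array medians. Tubb3 rose by 2.04 in mutant and 3.11 in control nerve, from uncut values below the medians. Uchl1 rose by 1.31 in control nerve. The part of these cell types in the channel changes was not tested.

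Between genotypes, Kcnj10 and, among signals below the array medians, Scn8a were called higher in mutant cut nerve, 2 of the 8 channel genes tested, where 1.09% of all genes were called and 0.38% were called higher. Both had entered the test through high groups, and none of the 5 genes above the median on all arrays was called. Kcnj10 was higher by 1.90 (SE 0.18, limma adjusted p = 0.0067), a 3.72-fold difference, and kept its call in all 8 fits that leave out 1 array (adjusted p up to 0.040). With the unmoderated statistic the adjusted p was 0.22. For Scn8a all 4 cut arrays of both genotypes lay below the array medians, so neither group compared has a firm level there. Its fitted difference was 0.95 (SE 0.15, adjusted p = 0.031), and the call was kept in 2 of 8 such fits. It was lost without either mutant cut array, either control cut array or either control uncut array, with adjusted p = 0.19 without control cut replicate 1. On another Scn8a probe set, above the median on 1 array, mutant cut nerve had 5.74 and 5.88 and control cut nerve 5.71 and 5.77, so that the groups overlapped.

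The other 6 genes did not pass in cut nerve. Kcna1 had the values given above, lower on both mutant cut arrays than on either control cut array (-0.67, 95% interval -1.21 to -0.14, limma adjusted p = 0.40). Kcna2 was at 0.73 (interval 0.22 to 1.24, adjusted p = 0.30) and Kcnk1 at -0.56 (interval -1.18 to 0.07, adjusted p = 0.66). Kcna6 at 0.45, Scn3b at 0.26 and Scn7a at 0.16 had intervals of -0.02 to 0.93, -0.08 to 0.59 and -0.15 to 0.47.

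In uncut nerve limma called none of the 8 channel genes, and 0% of all genes. At an unadjusted p under 0.05 there was 1 channel gene, Scn3b at 0.36 (95% interval 0.03 to 0.70), beside 2.66% of all genes. Kcnj10 was at -0.10 (interval -0.51 to 0.31) and Scn8a at 0.04 (interval -0.31 to 0.39). All 4 uncut Kcnj10 values lay below the array medians, where differences are compressed, so its interval sets no firm limit.

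**Figure D4:**
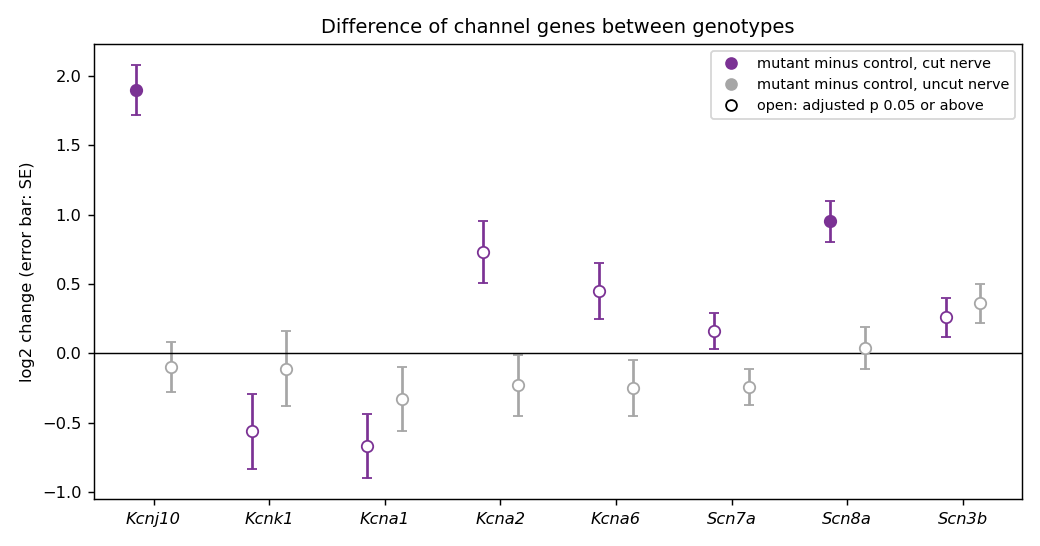
Log2 difference between genotypes (mutant minus control) of the 8 tested channel genes in cut and uncut nerve, with SE bars and open circles where the adjusted p was not under 0.05. Kcnj10 at 1.90 and Scn8a at 0.95 in cut nerve are the filled points, and all uncut differences lie between -0.33 and 0.36.

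Whether the response to injury itself differed was asked by the interaction, the injury change in mutant minus that in control nerve. Kcnj10 passed (2.00, SE 0.25, limma adjusted p = 0.044), as did 0.165% of all genes, 0.0661% higher and 0.0992% lower. The call was kept in 1 of 8 fits that leave out 1 array, that without mutant cut replicate 2. It was lost without any other array (adjusted p up to 0.20, without control uncut replicate 1), with the change between 1.77 and 2.22 throughout. It was also lost when probe sets were the units (adjusted p = 0.058). Kcna2 (0.96, SE 0.31, adjusted p = 0.52), Scn8a (0.91, SE 0.21, adjusted p = 0.24) and Kcna6 (0.71, SE 0.29, adjusted p = 0.76) did not pass, nor did Scn7a at 0.40. The remaining values, Kcnk1 at -0.45, Kcna1 at -0.34 and Scn3b at -0.11, were not called either.

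In cut nerve 3 of the 76 tested cell type markers, in 13 lists, were called between genotypes. These were Mbp, a main protein of myelin, at 0.99, the neuronal enzyme Uchl1 at -1.15 and the killer cell protease Gzmb at -2.25, each kept in 4 of 8 fits that leave out 1 array (adjusted p up to 0.13, for Gzmb without control cut replicate 1). Mean levels of the neuron list were 6.76 to 6.82 in mutant and 7.12 to 7.31 in control cut nerve, and of the T and natural killer cell list 7.76 to 7.78 in mutant and 8.32 to 8.45 in control cut nerve. Of the 4 tested genes of that second list Gzmb alone was called, Klrd1 stood at -0.10, and the list's median difference was -0.10. Of the 6 tested neuron genes Uchl1 alone was called, with Tubb3 at -0.74, Nefl at -0.10 and Prph at -0.05 (list median -0.26). Of the 8 tested genes of the myelinating Schwann cell list Mbp alone was called, and the median difference was 0.06. Mean levels of the Schwann lineage list were 10.49 to 10.66 in mutant and 10.58 to 10.65 in control cut nerve. The part of these cell types in the Kcnj10 and Scn8a differences was not tested.

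Channel genes outside the set moved both ways after the cut. The other potassium channel pore genes numbered 60, of which 25 were tested. Of these, 4 rose and 6 fell in mutant nerve (median -0.03), and 6 rose and 6 fell in control nerve (median 0.07). Calls thus numbered 10 of 25 in mutant and 12 of 25 in control nerve, near the 36% and 40.3% of all genes called in those comparisons, which are also the shares to set beside the lists that follow. Kcnq5, a subunit of the M-type channel that steadies neurons, rose by 2.40 in mutant and 1.93 in control nerve. Kcnn4, a calcium-activated channel of immune and red cells, rose by 0.95 in mutant and 1.47 in control nerve. Kcnj13, an inward rectifier of epithelia, stood at -2.17 in mutant and -2.13 in control nerve, both passed. In cut nerve 1 of the 25 differed between genotypes, the A-type channel gene Kcnd3, with 6.67 and 6.68 in mutant and 7.54 and 7.93 in control cut nerve (-1.06, limma adjusted p = 0.016, lost without either mutant cut array or control cut replicate 1, up to 0.11).

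Of 15 auxiliary potassium channel genes 7 were tested, with 1 rising and 1 falling in mutant and 2 rising and 1 falling in control nerve. The faller in both was Kcnmb4, a subunit of the large-conductance calcium-activated channel (-1.76 and -1.58 in mutant and control nerve). Kcnab2, the subunit that binds Shaker-type channels, rose by 0.67 and 0.58, the control call being lost in 2 of 8 fits (up to adjusted p = 0.063 without control uncut replicate 2). Of the other 8 sodium channel genes with a probe set 3 were tested, and Scn2a fell by 0.51 in mutant and 0.63 in control nerve (log2 changes -0.51 and -0.63). Scn2b, an auxiliary subunit, stood at -0.79 and -0.90, with calls kept in 1 and 4 of 8 fits (adjusted p up to 0.19 without mutant uncut replicate 1 and 0.11 without control cut replicate 2).

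**Figure D5:**
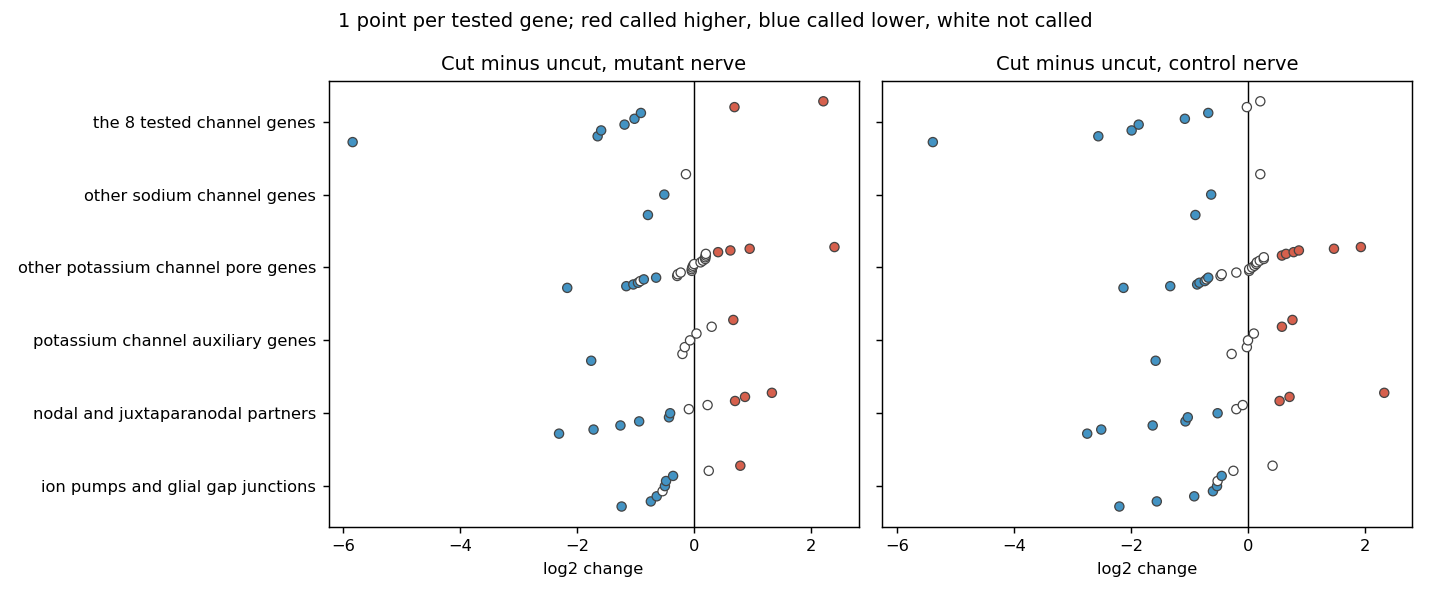
Log2 change after nerve cut in mutant and control nerve, 1 point per tested gene, for the channel genes, the other channel families, the partners at the node and the pumps and gap junctions. Red points were called higher, blue lower and white not called, and the other potassium channel pore genes lie on both sides of 0.

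Transcripts of genes whose proteins hold these channels in place moved in both directions. Of 18 partners of the node and its flanks 11 were tested, and 3 rose and 6 fell in each genotype. These were not all the same genes: 1 rose and 5 fell in both. Nfasc, the neurofascin gene whose forms anchor nodal and paranodal complexes, stood at -2.31 in mutant and -2.51 in control nerve, and Cntn1, the contactin of the paranodal junction, at -1.72 and -2.75. Nrcam, a nodal adhesion protein, rose by 1.33 and 2.33. Adam23, whose protein binds secreted LGI proteins, fell in control nerve (-1.63, limma adjusted p = 0.00059) and rose in mutant nerve (0.70, adjusted p = 0.027). Its interaction passed (2.33, SE 0.28, adjusted p = 0.037), a call lost in most fits that leave out 1 array. Adam23 had 9.03 and 8.57 as its highest and lowest values in mutant cut nerve, against 6.69 and 6.23 in control cut nerve. It was higher by 2.34 in mutant cut nerve (limma adjusted p = 0.0048), a call kept in all 8 fits that leave out 1 array. Nrcam was lower there (-0.97, adjusted p = 0.033), a call kept in 2 of 8 such fits, those without either mutant uncut array.

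Of 15 ion pump, cotransporter and gap junction genes 9 were tested. In mutant nerve 1 rose and 6 fell, and in control nerve none rose and 6 fell (limma, adjusted p under 0.05). Gjb1 encodes a connexin that forms channels through the layers of the myelin sheath. It stood at 8.48 and 8.61 in mutant cut nerve, against 7.66 and 7.66 in control cut nerve, and fell after the cut by 1.24 in mutant and by 2.20 in control nerve (log2 changes -1.24 and -2.20). Slc12a2, a cotransporter that brings sodium, potassium and chloride into cells, averaged 11.77 ± 0.117 in mutant cut nerve and 10.96 ± 0.062 in control cut nerve (SD, n = 2 each). Both were higher in mutant cut nerve, Gjb1 by 0.89 (limma adjusted p = 0.016) and Slc12a2 by 0.81 (adjusted p = 0.021). The Gjb1 call was lost without mutant cut replicate 1 or either control cut array (up to 0.11), and the Slc12a2 call was kept in 3 of 8 fits, those without mutant cut replicate 2 or either mutant uncut array (up to 0.14).

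As a description of pattern, the gene most like each channel gene over the 8 arrays was found by Pearson r among the other genes tested. The arrays fall into cut and uncut nerve, so most of these values carry the injury difference, and they have no p. Kcnj10 and Kcna6 are exceptions. In control nerve they changed by only 0.21 and -0.02 after the cut, and both were highest on the mutant cut arrays. Scn7a was most like Clasp2 (r = 0.9987), Kcnk1 like Sbf2 (r = 0.9969), Scn8a like Gjb1 (r = 0.9956) and Kcna2 like Map1a (r = 0.9947). Scn3b was most like Nr3c1 (r = 0.9909), Kcna1 like Nr2c2 (r = 0.9851), Kcnj10 like the endothelin receptor gene Ednrb (r = 0.9791) and Kcna6 like Map4k4 (r = 0.9604).

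Arrays of 1 group were not alike in every gene. The milk protein gene Csn2 stood at 3.69 and 9.15 in mutant cut nerve and 11.47 and 7.03 in control cut nerve. In uncut nerve it stood at 13.01 and 10.33 in the mutant and 3.5 and 4.14 in the control. Both mutant uncut arrays thus lay above both control uncut arrays, so the signal went with genotype there, while the cut groups overlapped. Without the 2 cut arrays of higher Csn2 signal (mutant replicate 2 and control replicate 1), each cut group kept 1 array, so only effect sizes are given. The change in mutant injury was then -0.97 for Kcna1, -0.65 for Kcna2 and 0.76 for Kcna6. Scn8a then stood at 0.85 between genotypes in cut nerve. All uncut arrays were kept, so the uncut difference in Csn2 remained. The part of this signal in the results was not tested further.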

How the data were processed

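The authors' deposited table gives log2 expression of 45101 probe sets on 8 Affymetrix mouse arrays, normalized with RMA in the package affy, per the submitters' processing notes. No label gives their versions. RMA subtracts background, equalizes array distributions and summarizes probes on the log2 scale, which compresses differences of low signals, and the table has no detection calls. Probe sets with 1 gene symbol (34958) were named from the platform annotation, and 34754 matched the gene table.

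Genes were kept if a probe set exceeded its array's median on at least 2 arrays, and the kept probe set of highest mean represented each, giving 12094 genes. limma 3.58.1 in R 4.3.3 fitted the 4 group means to all 8 arrays (4 residual degrees of freedom), with Benjamini-Hochberg adjustment over all genes in each comparison and a threshold of 0.05, two-sided. The number of arrays limits precision.

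The channel genes and gene lists were chosen with earlier results of these data known. Named genes are all 9 channel genes, Jun, the most similar gene to each, and up to 4 called genes of each list by size of change in control injury and cut genotype, up to 3 elsewhere. Genes of the lists that were not tested were not analysed here. Alternatives varied the filter, the probe set rule, the scaling, the variance model, the arrays fitted and the replicate block. Protein sequences were not used here.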

Additional observations from a re-analysis of the deposited data

Results flagged for a closer look

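The fitted interaction of Kcnj10 passed a test of the difference between genotypes in the change after the cut. That change was 2.21 in mutant and 0.21 in control nerve (log2), a difference of 2.00 (SE 0.25, limma adjusted p = 0.044). The gene exceeded the array medians only on the 2 mutant cut arrays, through which it entered the test, and the other 3 groups lay below every array median. The call was kept in 1 of 8 fits that each leave out 1 array, without mutant cut replicate 2, and was lost with probe sets as units (adjusted p = 0.058) and with the unmoderated statistic (adjusted p = 0.53). The gene has 1 probe set.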

How the results depend on the processing

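Of the channel genes' single values under the alternatives, 784 kept their side of the threshold, 49 were no longer called, and no called value changed sign. The 784 also hold values that were never called. The 49 all came from calls reported above: 6 in control injury, 8 in mutant injury, 2 in cut genotype and 1 in the interaction. Among values not called, 13 stood at 0 or had the other sign, among them Kcna6 after control injury, Scn7a between genotypes in cut nerve and the Kcnk1 interaction. The 8 channel genes called in mutant injury became 5 with a 75th percentile filter, under which Kcnj10, Scn8a and Scn3b were not tested. They also became 5 with the unmoderated statistic and without the 2 cut arrays of higher Csn2 signal (chosen after seeing the data). The 2 called in cut genotype, Kcnj10 and Scn8a, were not tested with that filter. These calls became 0 with the unmoderated statistic. They became 1 at a minimum of 2-fold, with only the 4 arrays compared and without the 2 Csn2 arrays. The 1 interaction call, Kcnj10, was likewise not tested with that filter. It became 0 with probe sets as units and with the unmoderated statistic. The cause was not tested where not named. Leaving out the 2 Csn2 arrays left 1 array in each cut group, so the part of that signal in lost calls was not tested. Leaving out 1 array gave 5 to 6 calls in control injury, 5 to 8 in mutant injury, 1 to 2 in cut genotype, 0 to 0 in uncut genotype and 0 to 1 in the interaction. The labels number replicates but do not say that numbers pair samples, and deviations of same-numbered arrays correlated at 0.02 to 0.34. With the replicate block the calls were 6, 8, 2, 0 and 1 in the same order, and with a replicate block within genotype 5 in control injury, 8 in mutant injury and 1 in the interaction. Over all genes, the 132 calls in cut genotype ranged from 13 to 111 with 1 array left out and were 67 at a minimum of 2-fold, 31 with only the 4 arrays compared, 55 without the 2 Csn2 arrays and 0 with the unmoderated statistic. The 20 interaction calls ranged from 0 to 45 with 1 array left out, and were 33 with no filter or a gene's mean probe set, 31 with trended variance, 11 with the 75th percentile filter, 9 with the block within genotype and 0 with the unmoderated statistic. The 4348 mutant injury calls were 2865 with the unmoderated statistic, 1370 at 2-fold, 2783 without the Csn2 arrays and 2734 to 4260 with 1 array left out, and the 4879 control injury calls were 1511 at 2-fold. Uncut genotype had 0 calls, 1 with a gene's mean probe set or probe sets as units, 4 with the replicate block, 9 with only its 4 arrays and 0 to 2 with 1 array left out. Signals below the array medians limit Kcnj16 and the low groups of Kcnj10, Kcnk1 and Scn8a. The same limit holds for other named genes, among them Scn2a, Cntn1, Ncmap and Nefl in cut nerve and Kcnq5 and Tubb3 in uncut nerve. These too entered the test through the groups in which they are high, and the sizes of their changes are uncertain.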
